A study of Rattus norvegicus with 65 samples.

Results

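The hypothalamus of 10 obese male Wistar rats that received PYY3-36 + liraglutide for 4 weeks was compared with that of 11 obese rats that had a sham operation, and the question was which genes and functions set the sham-treated group apart. The 21 libraries were taken from the 65 of the series by their labels, and all 38513 genes of the table entered, of which 21871 passed the filter on low counts. All 21 rats were 9 to 10 weeks old at the start, were made obese on a high-fat diet for 6 weeks, could choose between a high-fat and a low-fat diet afterwards, and were killed after a 10 h fast 4 weeks after the intervention. The combination was liraglutide at 0.4 mg/kg/day by subcutaneous injection and PYY3-36 at 0.1 mg/kg/day by osmotic minipump. The rats belonged to 2 experimental periods, called batch A and batch B, with 5 combination and 5 sham animals in A and 5 combination and 6 sham animals in B. The combination animals carried a pump and had no bowel operation, and the sham animals had the operation and no pump, so the drugs, the pump and the surgery cannot be told apart in this contrast. The paper reports that combination animals lost weight and ate less, while sham animals kept gaining weight. Body weight and food intake therefore cannot be told apart from the treatment either. The study's own control for the hormones is a group infused with saline, which is given here side by side. Each library is 1 animal and a whole dissected hypothalamus, so the p-values measure the spread between animals of these 2 periods. In such bulk tissue fewer cells of a type and less RNA per cell cannot be told apart.

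Peptide YY3-36 and glucagon-like peptide-1 are released by the gut after a meal. PYY3-36 acts mainly through the neuropeptide Y receptor Y2, and liraglutide is a long-acting agonist of the glucagon-like peptide-1 receptor. Both receptors are present in the arcuate nucleus of the hypothalamus, where neurons that make pro-opiomelanocortin restrain food intake and neurons that make neuropeptide Y and agouti-related peptide drive it.

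Before the results, the libraries were checked for tissue. The summed count was 23042892 to 35011015 in the combination group and 20040821 to 34128339 in the sham group. A score for hypothalamic peptides, the mean log2(CPM + 1) of 12 tested peptide genes such as oxytocin, vasopressin and hypocretin, ranged from 2.57 to 5.48 in the combination group (median 4.96) and from 1.65 to 6.22 in the sham group (median 5.52). It was under 4 in sham animals 1, 2, 6 and 10 and in combination animals 6 and 8, and in 17 of all 65 libraries. In these 4 sham libraries markers of neighbouring regions were high: the score for habenula and thalamus was 5.0 in sham 1, the cortex score was 6.20 in sham 2, and the striatum score was 7.54 and 7.67 in sham 6 and 10. The hypothalamic label is thus not borne out for the whole of these libraries, and the main counts, and the larger counts of pathway lists that moved by over 1.5 times, are given with and without them. Striatal markers were not confined to the sham group. The striatum score had a median of 5.81 in the combination group, up to 6.80, and of 4.85 in the sham group, up to 7.67. The striatal marker Drd1 was at 183 CPM in combination 6 and at 98.6 CPM in combination 8.

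The RNA of sham-treated animals differed from that of PYY3-36 + liraglutide-treated animals in many genes, and most of the large differences were genes with less RNA in the sham group. With edgeR's quasi-likelihood test, 436 of 21871 genes were at least 1 log2 unit higher in the combination group at a Benjamini-Hochberg adjusted p under 0.05 (1.99% of the tested genes), and 60 were lower (0.274%). At the adjusted p alone, 1456 genes were higher (6.66%) and 1764 were lower (8.07%), so the fold limit kept far more of the first than of the second. Among the 436 genes were 361 protein-coding genes, 33 long noncoding RNAs, 38 pseudogenes and 4 microRNA genes. Their level was low: the sham median was under 1 CPM (TMM-scaled counts-per-million) for 203 of the 436 and for 36 of the 60. Without the 17 libraries of low peptide score, an alternative added after seeing the data, 613 genes were higher and 55 lower (1657 and 920 at the adjusted p alone), and 374 of the 436 and 18 of the 60 were called again.

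The calls were lost when the libraries' balance of long and short transcripts was added to the model. This balance was measured as the mean log2 deviation of 4607 genes with at least 4000 exon bases minus that of 999 genes with under 1000 exon bases. It ran from -0.34 to 0.365 in sham animals of batch A (median -0.152) and from -0.69 to -0.307 in those of batch B (median -0.511). In combination animals it ran from 0.191 to 0.566 in batch A (median 0.239) and from -0.483 to 0.101 in batch B (median 0.0107). All sham animals except sham 1 lay below the combination animals of their batch, apart from combination 10, which lay within the sham range. When this difference was added to the model as a covariate, an alternative chosen after seeing the data, edgeR called 0 genes in the contrast (1803 genes at an unadjusted p under 0.05, smallest adjusted p 0.169), while 430 of the 436 and 60 of the 60 kept their direction. The balance was computed from the same counts, without leaving out the called genes, and it moved with the groups. The fit with the covariate therefore cannot fully separate the balance from the group, and the part of the balance in the group differences was not tested.

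**Figure D1:**
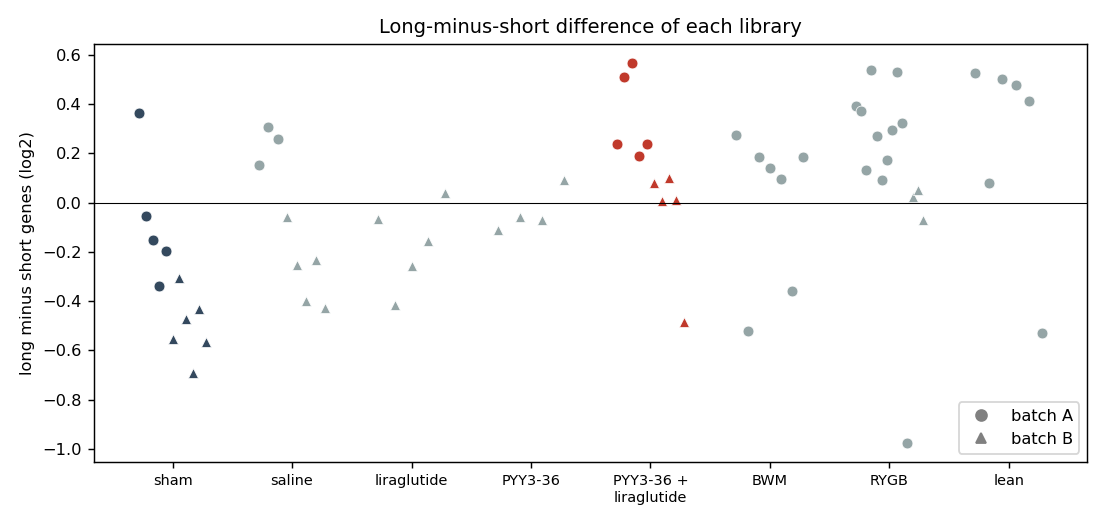
Long-minus-short difference (log2, y axis) of each of the 65 libraries by group (x axis), with circles for batch A and triangles for batch B. The sham libraries of batch B lie between -0.69 and -0.307, sham 1 lies apart from its group at 0.365, and combination 10 lies apart from its group at -0.483.

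The median difference rose with exon length from class to class. Genes with under 500 exon bases had a median log2 fold change, combination minus sham, of -0.43 (n = 698), those of 500 to 1000 bases -0.31 (n = 2039) and those of 1000 to 2000 bases -0.14 (n = 5314). The median was -0.03 for 2000 to 4000 bases (n = 7289), 0.07 for 4000 to 8000 bases (n = 5040) and 0.13 for 8000 bases and over (n = 1491). The share of genes lower at an adjusted p under 0.05 fell from 35.1% in the shortest class to 0.604% in the longest, and the share of genes higher went from 2.01% to 12%. The order was the same in both batches, with medians from -0.39 to 0.15 in A and from -0.43 to 0.14 in B. After removal of this trend 440 genes were higher and 36 lower, and 372 of the 436 and 35 of the 60 were called again, so removing this trend and adding the covariate gave different counts.

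**Figure D2:**
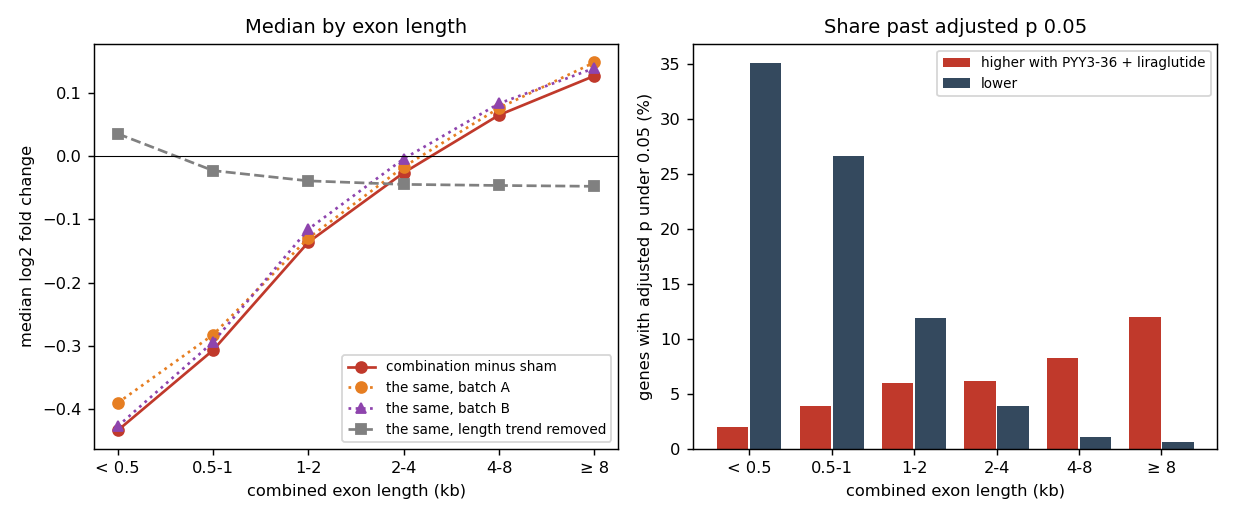
Left, median log2 fold change, PYY3-36 + liraglutide minus sham (y axis), for 6 classes of summed exon length (x axis, kb). Further lines show batch A, batch B and the fit with the length trend removed. In the main fit the medians go from -0.43 in the shortest class to 0.13 in the longest. Right, percent of genes in each class higher and lower at an adjusted p under 0.05.

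The sham group, rather than the combination group, stood apart from the mean of the 6 remaining groups, though few genes passed against saline alone. Sham against the mean of the 6 groups other than sham and combination gave 68 genes higher (0.311%) and 357 lower (1.63%). Combination against the same 6 groups gave 0 genes (0%), with 1061 genes at an unadjusted p under 0.05, a smallest edgeR adjusted p of 0.827, and 3 genes with DESeq2. These contrasts share samples, so their values are given side by side without a test. Food-restricted and lean rats were all in batch A, and rats given liraglutide alone or PYY3-36 alone were all in batch B. Both contrasts therefore rest on the batch term of the model. Over the 436 genes the median log2 difference was 1.31 for combination minus sham, -1.04 for sham minus the other groups and 0.29 for combination minus the other groups. Over the 60 genes it was -1.54, 0.89 and -0.69. Of the 436 genes 227 were also called lower in sham against the 6 groups, and of the 60 genes 20 were also called higher. Both gene sets were chosen on the contrast of the same sham and combination animals, which favours these signs. The medians and overlaps over them are therefore a description, and do not bear on which group stands apart. With the long-minus-short difference as a covariate sham against the 6 groups gave 18 genes, without sham 1 it gave 602, and without sham 5 it gave 276.

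Against the saline group few genes passed for either treatment. Sham against saline gave 2 genes (0.00914%), Scube1 with a log2 difference of -1.88 and Nwd2 with -1.79, at edgeR adjusted p of 0.00167 and 0.0234. Combination against saline gave 1 gene (0.00457%), Gpr151, an orphan receptor of the habenula, at -7.73 with an edgeR adjusted p of 0.00266. Its group medians were only 0.0339 CPM with the combination and 0.124 CPM with saline. The score for habenula and thalamus, a list that holds Gpr151, was 5.33 in saline 5 and 5.95 in saline 7 against 3.12 to 3.78 in the other saline animals, and its part in this difference was not tested. Scube1 and Nwd2 were named after their values were seen, as the members of so small a count. The unadjusted p was under 0.05 for 2812 genes in sham against saline and for 554 in combination against saline. Without sham 1, sham against saline gave 99 genes, without sham 8, 9, 10 or 11 it gave 1, and without the 17 libraries of low peptide score both contrasts gave 0. Over the 436 genes the median was -0.86 for sham minus saline and 0.45 for combination minus saline. These genes were chosen because combination and sham lay far apart, so a group that falls between them is no result.

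The contrast was read within each batch too. In batch A edgeR called 0 genes (4631 at an unadjusted p under 0.05, smallest adjusted p 0.0658), and in batch B it called 482 higher and 75 lower. The called genes were chosen on the pooled contrast of the same animals, which favours 1 sign in both batches, so the next counts are a description. Of 407 of the 436 genes tested in both batches 406 were higher in both, with medians of 1.14 in A and 1.49 in B over those of the 436 tested in each batch. Of 43 of the 60 genes tested in both 39 were lower in both, with medians of -1.56 and -1.65 over those of the 60 tested in each batch. Single libraries shaped the ranges: combination 10 was the lowest of its group in 343 of the 436 genes, and sham 1 was the highest of its group in 325. The same 2 libraries stood apart in the long-minus-short difference, and without sham 1 the genes higher numbered 620.

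Complete separation of the 2 groups was rare. The lowest combination animal exceeded the highest sham animal in 6 genes (0.0274%), and the reverse held in 3 (0.0137%). Rbms3, which encodes an RNA-binding protein (gene at chr8:124833804-125645895, Rnor_6.0), had 8.24 CPM in the lowest, 11.3 in the median and 12.4 in the highest combination animal, against 2.54, 4.12 and 7.55 CPM in the sham animals. The ranges did not touch, and the log2 fold change was 1.16 ± 0.19 (SE, n = 10 and 11, edgeR adjusted p = 0.000795), with 1.29 within batch A and 1.08 within batch B. The medians of Rbms3 in the other groups ran from 7.13 CPM with liraglutide alone to 11.5 CPM in lean rats, all above the sham median. Xiap, which encodes an inhibitor of caspases, had 33.9, 41.3 and 54.3 CPM in the combination animals against 20.6, 26.9 and 32.0 CPM in the sham animals. Its difference was small but without overlap, at 0.61 ± 0.12 on the log2 scale (edgeR adjusted p = 0.00148). Ube3a, a ubiquitin ligase, was separated by a narrow gap, with 27.6 to 57.3 CPM against 13.99 to 27.2 CPM. The remaining genes of this kind were Tacr3, described below, LOC304725 and LOC108351349, the last with under 1 CPM in every animal of both groups.

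The 3 genes that were lower without overlap changed little. Coasy, which encodes the enzyme of the last steps of coenzyme A synthesis (chr10:88992413-88996677, Rnor_6.0), had 36.3, 46.2 and 48.5 CPM in the combination animals and 49.7, 54.4 and 60.7 CPM in the sham animals. Its log2 fold change was -0.28 ± 0.05 (edgeR adjusted p = 0.00101), with combination 7 far below the others. Ccdc124 was at 50.3 to 69.3 CPM against 69.9 to 92.7 CPM (log2 fold change -0.45 ± 0.10). Usf1, a transcription factor that binds E-boxes, was at 64.2 to 76.2 CPM against 77.2 to 102 CPM (-0.25 ± 0.06). None of these 3 genes reached the fold limit of 1.

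**Figure D3:**
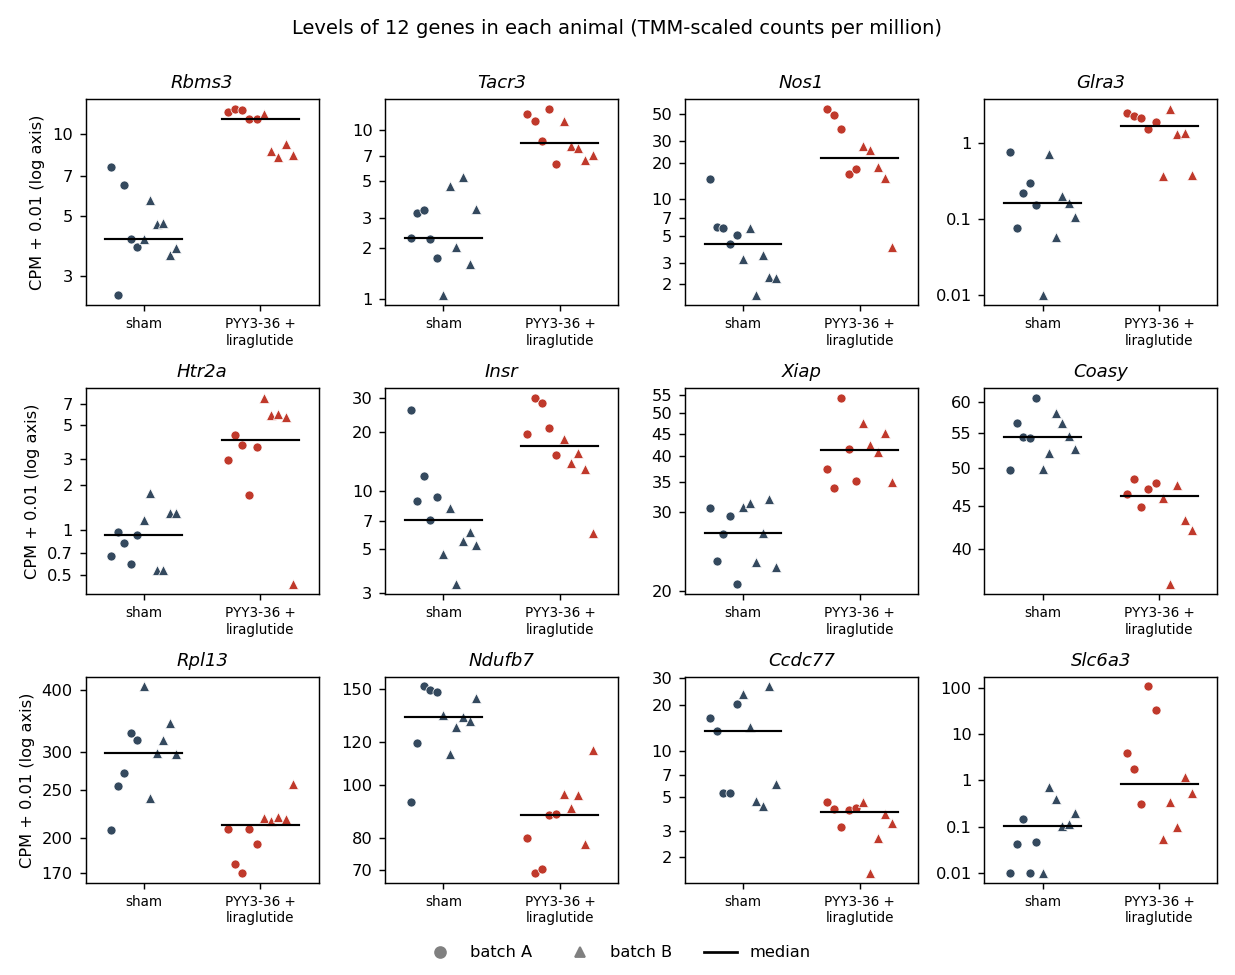
TMM-scaled CPM (y axis, log scale, 0.01 added) of 12 genes in each sham and each PYY3-36 + liraglutide animal, with circles for batch A, triangles for batch B and a bar at the median. Rbms3, Xiap and Coasy do not overlap between the groups, while the Slc6a3 difference rests on 2 combination animals of batch A at 105.8 and 33.4 CPM.

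A neuropeptide receptor and 2 other genes of neurons were among those with the clearest deficit of RNA in the sham group. Of 23 tested genes in receptor families named by the study 2 were higher in the combination group and 0 lower, against 6.66% and 8.07% of all tested genes, and this list was chosen by the study on animals of this series. Its 1 member past the fold limit was Chrnb3, described below, and the genes of this paragraph were not in the list. Tacr3, the neurokinin 3 receptor for neurokinin B (chr2:240021152-240118971, Rnor_6.0), had 6.32, 8.34 and 13.4 CPM in the lowest, median and highest combination animal and 1.04, 2.30 and 5.26 CPM in the sham animals. All combination animals lay above all sham animals, and the log2 fold change was 1.72 ± 0.30 (edgeR adjusted p = 0.000795), with 2.03 within batch A and 1.44 within batch B. Nos1, the neuronal nitric oxide synthase (chr12:44214949-44405530), had 3.99, 21.9 and 55.9 CPM against 1.6, 4.26 and 14.7 CPM. Only combination 10 lay below the sham median, and the log2 fold change was 2.43 ± 0.42 (edgeR adjusted p = 0.000795). With the long-minus-short covariate the differences were 1.34 for Tacr3 and 1.13 for Nos1, and neither passed. The Nos1 medians of the other groups ran from 8.53 CPM with saline to 31.9 CPM in lean rats. Pcdh11x, a protocadherin, was higher by 2.24 ± 0.40 on the log2 scale, with a median of 8.90 CPM against 1.71 CPM.

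Tacr3 and Nos1, which were among the genes with the lowest adjusted p of the contrast, are shown with the 250 bases upstream of their RefSeq start in GRCr8, beside the promoters of Rpl18 and Ndufb7, which were lower. The capitals mark a TATA box (TATAAA) in Tacr3 and the core of the binding site of ETS factors (CCGGAAG) in Ndufb7, both searched on the 2 strands, and no capitals stand in Nos1 and Rpl18, where neither string was found.
Tacr3, chr2:225940247-225940496, plus strand: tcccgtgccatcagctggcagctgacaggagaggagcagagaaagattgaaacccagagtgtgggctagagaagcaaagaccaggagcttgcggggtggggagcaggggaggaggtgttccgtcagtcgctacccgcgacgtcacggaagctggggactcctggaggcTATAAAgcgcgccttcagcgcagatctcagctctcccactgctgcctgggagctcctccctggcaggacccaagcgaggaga
Nos1, chr12:44371838-44372087, minus strand: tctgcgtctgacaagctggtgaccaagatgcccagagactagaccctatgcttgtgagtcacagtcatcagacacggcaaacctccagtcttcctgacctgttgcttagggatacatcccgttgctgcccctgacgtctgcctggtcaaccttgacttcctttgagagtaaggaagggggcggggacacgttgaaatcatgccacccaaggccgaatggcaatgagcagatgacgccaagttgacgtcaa
Rpl18, chr1:105325020-105325269, plus strand: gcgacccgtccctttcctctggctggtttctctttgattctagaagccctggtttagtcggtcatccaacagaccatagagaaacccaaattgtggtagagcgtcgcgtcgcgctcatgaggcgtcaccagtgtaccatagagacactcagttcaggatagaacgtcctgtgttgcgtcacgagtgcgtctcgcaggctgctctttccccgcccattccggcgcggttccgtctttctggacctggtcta
Ndufb7, chr19:41477292-41477541, minus strand: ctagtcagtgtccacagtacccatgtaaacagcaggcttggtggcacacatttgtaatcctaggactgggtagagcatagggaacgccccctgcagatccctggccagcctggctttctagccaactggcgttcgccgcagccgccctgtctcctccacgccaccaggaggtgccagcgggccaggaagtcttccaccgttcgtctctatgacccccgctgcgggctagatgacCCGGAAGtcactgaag
CCGGAAG was present in 7.74% of all 27457 RefSeq promoters of this length and in 12.2% of the 14378 promoters matched to tested genes. It was present in 21.1% of 1190 matched genes that were lower at an adjusted p under 0.05 and in 11.3% of 933 that were higher. Among genes also past the fold limit, it was present in only 2.44% of 41 matched lower genes and in 8.7% of 230 higher genes. TATAAA was present in 13.1% of all promoters, in 8.01% of those matched to tested genes, in 8.24% of the lower and in 5.68% of the higher genes. Past the fold limit its shares were 14.6% of the lower and 6.09% of the higher genes. Only 14378 of 21826 tested gene IDs matched a promoter, and the shares describe the matched genes alone.

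Some glycine and serotonin receptor genes were lower in sham. Of 7 tested glycine receptors and transporters 3 were higher in the combination group at an adjusted p under 0.05 and 0 lower, against 6.66% higher of all tested genes (median log2 fold change 0.62, against -0.04 over all tested genes). Glra3, a subunit of the inhibitory glycine receptor, had 0.357, 1.70 and 2.84 CPM in the combination animals and 0, 0.155 and 0.755 CPM in the sham animals. Every combination animal lay above the sham median, and the log2 fold change was 2.68 ± 0.49 (edgeR adjusted p = 0.00101), but at under 3 CPM in every animal. Slc6a5, the neuronal glycine transporter GlyT2, was higher by 0.99 ± 0.27 and Glra2 by 0.62 ± 0.21. Of 12 serotonin receptors 2 were higher and 0 lower (median 0.34), and 4 were higher without the libraries of low peptide score. Htr2a, the excitatory 2A receptor, had 0.423, 3.98 and 7.68 CPM against 0.531, 0.909 and 1.77 CPM, and combination 10 was its only value below the sham median. Its log2 fold change was 2.13 ± 0.42 (edgeR adjusted p = 0.00172). Htr5a was higher by 0.86 ± 0.26 (edgeR adjusted p = 0.0215), and Htr1b had a difference of 1.01 ± 0.36 that did not pass (edgeR adjusted p = 0.0506). Without the libraries of low peptide score these calls turned, with Htr5a at 0.84 (edgeR adjusted p = 0.0563) and Htr1b at 1.43 (edgeR adjusted p = 0.0198). With the long-minus-short covariate the list medians were 0.45 for glycine and -0.16 for serotonin receptors, Htr2a was at 0.73, and 0 members passed.

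Among receptors for the main fast transmitters and among ion channels, a minority of members was higher in the combination group, to be read against 6.66% of all tested genes higher and 8.07% lower. Of 38 glutamate and GABA receptor genes 5 were higher and 0 lower (median 0.22), with Grik3, a kainate receptor subunit, at 1.73 ± 0.42 and Grin3a, an NMDA receptor subunit, at 1.25 ± 0.33 on the log2 scale. Of 51 potassium channel genes 6 were higher and 1 lower (median 0.26). Kcna3, the channel Kv1.3, had 0.188, 2.82 and 6.57 CPM in the combination animals and 0.0483, 0.384 and 2.08 CPM in the sham animals. The ranges overlapped, with combination 10 at the bottom of its group, and the log2 fold change was 2.25 ± 0.50 (edgeR adjusted p = 0.00302). Kcnh5 was higher by 2.22 ± 0.53, Kcnf1 by 1.18 ± 0.40, and Kcnj10, the inward rectifier Kir4.1 of astrocytes, by 1.06 ± 0.26. Kcng2 was lower, at -0.92 ± 0.26, with the highest sham animal at 115 CPM against a sham median of 15.9 CPM. Of 19 sodium and calcium channels only Scn8a passed, at 0.85 ± 0.29, a share below that of all tested genes. Without the libraries of low peptide score 11 glutamate and GABA receptor genes, 13 potassium channel genes and 2 sodium and calcium channel genes were higher and 0 of the 3 lists lower. Gad2, which makes GABA from glutamate, was the 1 of 12 general neuron markers that passed, at 1.27 ± 0.38 (edgeR adjusted p = 0.0194), with a list median of 0.02. All of the genes named here except Kcng2 were lower in sham. With the long-minus-short covariate the list medians turned to -0.06 for glutamate and GABA receptors and -0.05 for potassium channels, with 0 members past the threshold.

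Among the PI3K-Akt, JAK-STAT and AMPK lists, the PI3K-Akt list, which holds genes of insulin signalling, had the largest share of genes past the fold limit. Of 22 PI3K-Akt genes 7 were higher and 0 lower (median 0.19), and 4 passed the fold limit, against 1.99% of all tested genes. Insr, the insulin receptor (chr12:1682527-1816414, Rnor_6.0), had 6.06, 17.02 and 30.1 CPM in the combination animals and 3.30, 7.07 and 26.1 CPM in the sham animals. The groups overlapped through sham 1, which was highest of its group, and combination 10, which was lowest of its group, and the log2 fold change was 1.07 ± 0.24 (edgeR adjusted p = 0.00308). Irs1, the substrate that the receptor phosphorylates, was higher by 1.06 ± 0.24, and the transcription factors Foxo1 and Foxo3, which Akt inactivates, by 1.11 ± 0.26 and 1.18 ± 0.28. With the long-minus-short covariate the list median was -0.03 and Insr was at 0.23 (edgeR adjusted p = 0.595). Of 26 JAK-STAT genes 2 were higher and 0 lower (median 0.09), a share near the 6.66% of all tested genes, and 5 were higher without the libraries of low peptide score. Of the 2, Stat5b, a transcription factor of cytokine and growth hormone signalling, was at 1.01 ± 0.20. Of 9 AMPK genes 0 were higher and 2 lower (median 0.00), and without those libraries 2 were higher and 1 lower. These pathways were chosen by the study on animals of this series, sham animals included, so their direction is not independent evidence.

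Lepr, the leptin receptor, had 1.79, 3.78 and 17.8 CPM in the combination animals and 0.881, 2.23 and 4.53 CPM in the sham animals. The groups overlapped, and combination 1 held the highest value by far. The log2 fold change was 1.01 ± 0.38 (edgeR adjusted p = 0.0617), with 1.62 within batch A and 0.33 within batch B, and did not pass.

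The receptors of the 2 drugs and the feeding peptides were not separated. Of 36 tested receptors and peptides in this list 0 passed in either direction (median -0.14). Glp1r, the receptor of liraglutide, had 1.88, 3.35 and 4.54 CPM in the combination animals against 0.518, 2.33 and 5.26 CPM in the sham animals. Npy2r, the receptor of PYY3-36, had 8.72, 12.1 and 15.8 CPM against 3.16, 11.4 and 29.2 CPM. The combination range lay inside the sham range for both genes, and their log2 fold changes were 0.40 ± 0.47 and 0.14 ± 0.29 (edgeR adjusted p = 0.616 and 0.797). Pomc, the precursor of melanocortins, had 2.50, 7.28 and 116 CPM in the combination animals and 2.68, 50.3 and 1090 CPM in the sham animals, a log2 fold change of -2.33 ± 1.07 (edgeR adjusted p = 0.133). Pomc is also a pituitary gene, and the animals with its highest values, sham 3 and combination 5, were highest of their group in the pituitary hormone Gh1 too, at 47.7 and 8.2 CPM, and the part of pituitary tissue was not tested. Npy was at -0.74 ± 0.38, Agrp at -0.47 ± 0.77, Cartpt at -0.23 ± 0.53 and the melanocortin 4 receptor Mc4r at -0.15 ± 0.33, with edgeR adjusted p from 0.183 to 0.824. The spread between animals of these genes of small nuclei was wide, and a difference was not detectable at this spread.

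**Figure D4:**
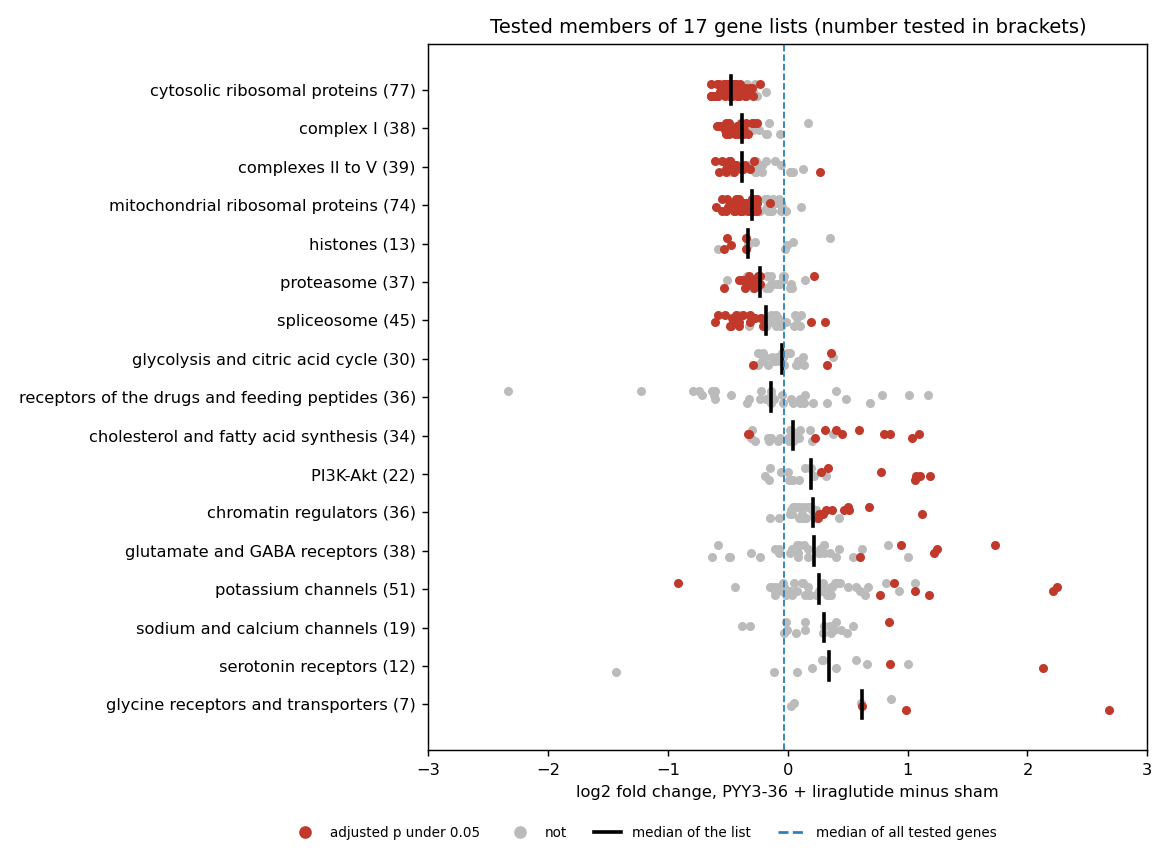
Log2 fold change, PYY3-36 + liraglutide minus sham (x axis), of each tested gene in 17 lists (y axis), coloured where the adjusted p is under 0.05, with a bar at the list median and a dashed line at the median of all tested genes. Lists of ribosomal and respiratory chain genes lie below 0 with medians down to -0.47. The list of receptors of the drugs and feeding peptides has a median of -0.14. The other lists of receptors and channels have medians above 0, up to 0.62.

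Genes for protein synthesis and respiration formed the other side of the contrast, with small differences in many members. Of 77 tested cytosolic ribosomal protein genes 69 were lower in the combination group and 0 higher (median -0.47, within batches -0.37 in A and -0.51 in B), against 8.07% of all tested genes, and none reached the fold limit. Rpl13, of the large subunit, had 169, 213 and 258 CPM in the combination animals and 207, 299 and 407 CPM in the sham animals. All combination animals lay below the sham median, although the ranges overlapped, and the log2 fold change was -0.51 ± 0.11 (edgeR adjusted p = 0.00230). Rpl18, whose promoter is shown above, was at -0.53 ± 0.12, and Rps15, of the small subunit, at -0.59 ± 0.14. Of 74 mitochondrial ribosomal proteins 40 were lower and 0 higher (median -0.30), with Mrps21 at -0.60 ± 0.13. Reads of these genes that fit near-identical pseudogenes were divided between the copies by the authors' counting, which makes single members uncertain. Without the libraries of low peptide score 39 cytosolic and 23 mitochondrial ribosomal protein genes were lower, with medians of -0.47 and -0.30.

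In the respiratory chain, 28 of 38 complex I genes were lower and 0 higher (median -0.39, within batches -0.51 in A and -0.26 in B). Ndufb7, a complex I subunit, had 68.9, 88.4 and 116 CPM in the combination animals against 93.2, 134 and 152 CPM in the sham animals, and 10 of 10 combination animals lay below the sham median (log2 fold change -0.59 ± 0.14, edgeR adjusted p = 0.00533). Of 39 genes of complexes II to V 23 were lower, among them Atp5e of the ATP synthase at -0.61 ± 0.15, and 1 was higher, Sdha, the flavoprotein of complex II, at 0.27 ± 0.07. Without the libraries of low peptide score 17 genes of complex I and 14 of complexes II to V were lower, with medians of -0.43 and -0.34. Most of these genes are short, with a median of 603 exon bases for the cytosolic ribosomal proteins and 646 for complex I, against 2630 for all tested genes, and 2277 for Sdha. With the trend over exon length removed the medians were -0.13 for the cytosolic ribosomal proteins (23 of 77 lower) and -0.11 for complex I (3 of 38 lower). With the long-minus-short covariate they were -0.04 and -0.05, and 0 members of either list passed. In glycolysis and the citric acid cycle the shares were at or below those of all tested genes (6.66% higher, 8.07% lower): of 30 genes 2 were higher, Ogdh at 0.33 ± 0.10 and Cs at 0.36 ± 0.12, and 1 was lower, Suclg1 at -0.29 ± 0.10 (median -0.05). The ETS core CCGGAAG was in 25.9% of 58 matched promoters of cytosolic ribosomal protein genes, in 18.2% of 33 of complex I and in 37.5% of 32 of complexes II to V.

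Other housekeeping lists are given against 6.66% of all tested genes higher and 8.07% lower. Of 37 proteasome genes 15 were lower and 1 higher (median -0.23), of 45 spliceosome genes 17 were lower and 2 higher (median -0.18), and of 13 histone genes 5 were lower and 0 higher (median -0.34). Without the libraries of low peptide score 6 proteasome, 6 spliceosome and 3 histone genes were lower. Chromatin regulators, whose median exon length was 9363 bases, went the other way, with 11 of 36 higher and 0 lower (median 0.21). Of these, Tet1, which oxidises methylcytosine, was higher by 1.12 ± 0.29, Bptf, a subunit of a nucleosome remodeler, by 0.50 ± 0.13 and Arid1a, of the SWI/SNF complex, by 0.28 ± 0.09. The chromatin median was -0.06 with the long-minus-short covariate. Of 34 genes of cholesterol and fatty acid synthesis 9 were higher and 2 lower (median 0.04). Scd4, a stearoyl-CoA desaturase, had 3.71, 9.03 and 12.1 CPM in the combination animals and 2.22, 3.80 and 7.52 CPM in the sham animals. The ranges overlapped, with 9 of 10 combination animals above the sham median, and the log2 fold change was 1.04 ± 0.21 (edgeR adjusted p = 0.00172). Of the 18 clock genes and 18 immediate early genes 0 passed, with medians of -0.02 and -0.49, and without the libraries of low peptide score 2 clock genes were higher.

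**Figure D5:**
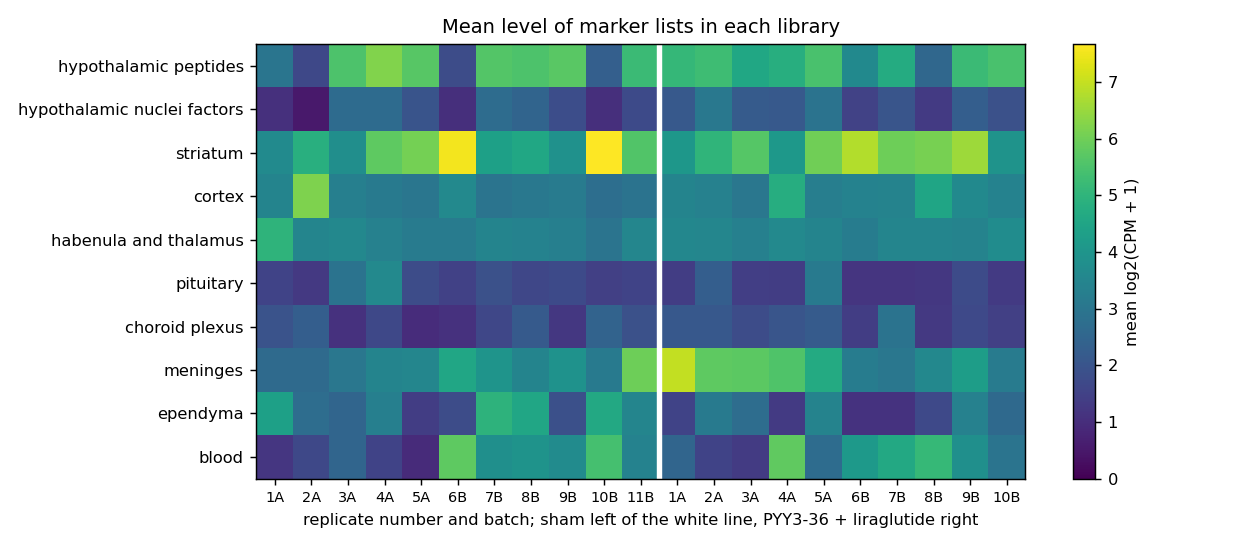
Scores of cell type and region marker lists (mean log2(CPM + 1) of a list's tested genes) in each sham and PYY3-36 + liraglutide animal, by batch. The meninges score is highest in the combination animals of batch A, at 4.68 to 6.97, and the hypothalamic peptide score falls to 1.65 in the sham group.

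Markers of most other cell types did not pass the test. Their counts are to be read against 6.66% of all tested genes higher and 8.07% lower. The 9 tested pituitary markers were all below 0 (median -1.54, within batches -1.93 in A and -0.91 in B) and the 5 blood markers all above 0 (median 1.34, within batches 3.09 in A and -0.33 in B), and 0 genes of either list passed. Blood scores overlapped, at 1.32 to 5.81 in the combination animals and 0.94 to 5.78 in the sham animals, and pituitary scores at 1.17 to 3.15 and 1.28 to 3.61. Of 11 microglia markers only Cx3cr1, the fractalkine receptor, passed, at 0.76 ± 0.19, and the list median was -0.07. Of 22 tested cytokine and NF-kB genes 1 was higher (4.55%) and 0 lower. This was Tlr4, a receptor for bacterial lipopolysaccharide, at 1.01 ± 0.26, with 1.47 within batch A and 0.63 within batch B. Of 8 mural cell markers 2 were higher, Notch3 at 0.90 ± 0.25 and Rgs5 at 0.78 ± 0.24 (median 0.29, within batches 1.19 in A and -0.17 in B). In the choroid plexus list of 11 only Kl, which encodes the FGF23 coreceptor klotho, passed, at 1.73 ± 0.47. The lists of tanycytes (10 tested), endothelium (10) and oligodendrocyte precursors (6) each had 1 gene higher and 0 lower at the adjusted p. Oligodendrocyte and astrocyte markers had medians of -0.26 and 0.12 with 0 genes past the threshold. The 7 ependyma markers were all below 0 (median -1.36, within batches -0.68 in A and -2.11 in B), and 0 of them passed.

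The contrast differed between the batches, among others for markers of the meninges. A test of the difference, batch B minus batch A, gave 269 of 19034 genes (1.41%), of which 3 were positive and 266 negative, and 12 of 14 meninges genes were among them. The meninges list had a median log2 fold change of 3.28 within batch A and -1.16 within batch B. Its score was 4.68 to 6.97 in combination animals of batch A, 2.65 to 3.53 in sham animals of batch A, 3.03 to 4.28 in combination animals of batch B and 3.12 to 5.99 in sham animals of batch B. Among the genes of this test were Cxcl16, a chemokine, with a difference of -3.11 (mean log2(CPM + 1) in batch A 3.81 with the combination and 1.93 with sham, in batch B 2.50 and 3.13, edgeR adjusted p = 0.00606), and C4b, complement component 4, with -2.29 (edgeR adjusted p = 0.00849). Of the 496 genes called in the contrast 3 were in this set, Cybb, Ptrf and Fam129a, which were named after their values were seen. This test used the 21 libraries of both groups. Without the 2 combination and 4 sham libraries of low peptide score 0 genes passed it (2910 of 19241 at an unadjusted p under 0.05), with 8 combination and 7 sham animals left. It gave 126 to 177 when combination 1, 2, 6 or 7 or sham 2 or 11 was left out. How much meningeal tissue was carried along in each dissection was not tested.

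The largest fold changes rested on few animals. Slc6a3, the dopamine transporter of midbrain dopamine neurons, had a log2 fold change of 6.14 ± 1.69 (edgeR adjusted p = 0.0114), with 0.0446, 0.834 and 105.8 CPM in the combination animals and 0, 0.0966 and 0.707 CPM in the sham animals. Combination 4 at 105.8 CPM and combination 5 at 33.4 CPM, both of batch A, carried it, and these animals also held the highest values of Th, the tyrosine hydroxylase of the same neurons, at 236 and 125 CPM. The Slc6a3 difference was 9.32 within batch A and 0.83 within batch B. Chrnb3, a nicotinic receptor subunit, was at 4.21 ± 1.2, with 2.08 to 6.62 CPM in combination animals of batch A, 0 to 0.305 CPM in those of batch B and 0 to 0.384 CPM in the sham animals. Pax9, a developmental transcription factor, had 32 counts over 7 combination animals and 0 in sham, which makes it at least 10.1-fold higher in the combination group against a floor of 3 counts over the group.

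Of the 60 genes with more RNA in sham, some differed in many animals and others came from single animals. Ccdc77 had 1.56, 3.96 and 4.60 CPM in the combination animals and 4.35, 13.6 and 26.5 CPM in the sham animals, a log2 fold change of -1.85 ± 0.37 (edgeR adjusted p = 0.00189). All combination animals lay below the sham median, and the medians of the groups other than sham lay between 3.96 and 5.03 CPM. Tnni3, the cardiac form of troponin I, was at -1.83 ± 0.48 and Prc1, a regulator of cytokinesis, at -1.54 ± 0.41, each with all combination animals below the sham median. Without the libraries of low peptide score both lost their call, with Tnni3 at -1.35 (edgeR adjusted p = 0.0733) and Prc1 at -0.73 (edgeR adjusted p = 0.193), while Ccdc77 was at -1.32 (edgeR adjusted p = 0.0234). In 15 of the 60 genes 1 sham animal held most of the sham group's summed level, and in 1 of the 436 genes 1 combination animal held most of that of the combination group. Shox2, a transcription factor of the thalamus and habenula, was at -3.70 ± 1.31 (edgeR adjusted p = 0.0453) with sham 1 at 60.1 CPM against a sham median of 0.182, and it was at 1.48 without that animal. Kap, Hao2, Slc7a13 and Miox, genes known chiefly from the kidney, had 0 counts in all combination animals. Kap had 143 counts in sham 6, 8 and 9, at least 50.5-fold higher in sham against a floor of 3 counts over the group that covers counting error only, Hao2 91 counts (at least 32.2-fold), Slc7a13 56 (at least 19.8-fold) and Miox 49 (at least 17.3-fold). Sham 9 held 74.9% of the Kap level, and whether tissue other than brain reached these libraries was not tested.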

How the data were processed

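RNA was extracted from the hypothalamus of 65 rats, 21 of which belong to the contrast, and libraries were made with the TruSeq stranded mRNA kit from 100 ng of RNA with an integrity number above 7.2 and sequenced in single-end reads of 75 nt. The authors trimmed reads with cutadapt (several versions are named), aligned them to Rnor_6.0 with STAR 2.7.2b and counted them per RefSeq gene with featureCounts 1.6.4, on the strand, with reads of several places or genes split into fractions. The deposited table therefore holds estimated counts per gene and library, and 30.3% of its non-zero values were not whole (tolerance 1e-06). They were rounded to whole numbers, which changed no library's total by more than 0.00104%. Counts were scaled by TMM and tested with edgeR 4.0.16 (R 4.3.3) by the quasi-likelihood test on all 65 libraries, with group and batch as terms, after the filter of filterByExpr (count minimum 10, total minimum 15), and p-values were adjusted by the Benjamini-Hochberg method over all 21871 genes. Calls needed both an adjusted p under 0.05 and a log2 fold change beyond 1 in either direction. Fold changes are given with SE, and scores used a pseudocount of 1. The study used DESeq2, and DESeq2 1.42.0 was run as an alternative, its missing adjusted p left out. The fits were tested on simulated data.

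The members and gene lists were chosen with earlier results of these data known. Genes named in the text were the 12 with the smallest p and the 6 with the largest change in each direction among the called, up to 6 called members of each list and otherwise its 3 of smallest p, the genes named in the study's results, the drugs' receptors and arcuate peptides, the first 3 markers of each list, genes without overlap, and the 6 leading genes of the batch difference. Genes outside this rule were chosen after their values were seen: Th, Bptf, Arid1a, Kcng2, Slc6a5, Glra2, Sdha, Scube1, Nwd2, Cybb, Ptrf and Fam129a. Promoters came from RefSeq (GRCr8) and no coordinates were converted. Some results are not reported here. The alternatives were other scalings, filters, covariates, DESeq2, subsets of libraries, a replicate block and each library left out, and 2 of them were added after seeing the data. No 2 libraries were duplicates (highest correlation of log CPM 0.9814).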

Additional observations from a re-analysis of the deposited data

Results flagged for a closer look

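In the combination group of 10 animals 54 values were examined for a sample far from the others by Dixon's criterion (gap over range above 0.466), and 10 met it, where chance gives about 1 in 20. Combination 10 stood apart in the long-minus-short difference (-0.4829), in the cytosolic ribosomal protein score (8.04), in Foxo1 (3.1 CPM, low), in Mrps21 (48.09 CPM, high) and in Shox2 (4.086 CPM, high). Combination 4 stood apart in Slc6a3 (105.8 CPM) and Chrnb3 (6.62 CPM), combination 7 in Coasy (36.25 CPM, low) and Kl (6.987 CPM, high), and combination 1 in Lepr (17.77 CPM, high). Groups of 11 were not examined in this way, so no sham animal could appear here.

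The contrast of combination and sham differed between the batches in 269 genes by the interaction term of edgeR's quasi-likelihood test with Benjamini-Hochberg adjustment. The 6 leading genes were on average higher with the combination than with sham in batch A and lower in batch B, with log2 differences, B minus A, of -3.88 for Mpa2l, -3.11 for Cxcl16, -3.12 for Gpr183, -2.69 for Crispld2, -2.29 for C4b and -5.81 for Mill1 (adjusted p 0.00606 to 0.00849). For Mpa2l the mean log2(CPM + 1) was in batch A 2.27 with the combination and 1.02 with sham, against 0.845 and 2.11 in batch B.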

How the results depend on the processing

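The 436 higher genes became 95 with DESeq2 on the group alone with shrunken fold changes, 0 within batch A, 0 with the long-minus-short difference as a covariate (chosen after seeing the data) and 1456 at the adjusted p alone. The 60 lower genes became 137 with no filter on low counts, 6 with that DESeq2 fit, 97 with pituitary, choroid plexus and meninges scores as covariates, 36 with the exon length trend removed, 0 with the long-minus-short covariate, 23 with only the 21 libraries fitted, 8 with a replicate block, 0 within batch A and 1764 at the adjusted p alone. Sham against the other groups, 425 genes, became 669 with no filter, 14 with the shrunken DESeq2 fit and 18 with the long-minus-short covariate. Combination against the other groups, 0 genes, became 1 with no filter and 3 with DESeq2 with group and batch. Sham against saline, 2 genes, became 18 and 14 with the 2 DESeq2 fits, 4 with no batch term, 1 with the length trend removed, 0 within batch A, 1 within batch B and 0 without the 17 libraries of low peptide score (chosen after seeing the data). Combination against saline, 1 gene, became 9 and 3 with the 2 DESeq2 fits, 2 with no batch term, 0 with the marker scores as covariates, 0 within either batch and 0 without those 17 libraries. The batch difference, 269 genes, became 0 without the 2 combination and 4 sham libraries of low peptide score. The cause of these changes was not tested, beyond the smaller number of samples or the stricter rule where a setting consists of that. Under the other settings run on all libraries these counts stayed within 1.5 times.

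With each library left out in turn, the genes higher ranged from 363 to 620, the genes lower from 42 to 76, sham against the other groups from 276 to 602, combination against the other groups from 0 to 0, sham against saline from 1 to 99, combination against saline from 1 to 1 and the batch difference from 126 to 314. Shox2, at -3.70, reversed to 1.62 without the libraries of low peptide score, 1.48 without sham 1 (with each library left out in turn, -4.18 to 1.48) and 2.17 within batch B, and Gpr183 reversed to -1.45 within batch B. Over settings other than leaving out a library, 193 values of named genes lost their call and 37 gained one. A further 136 changed direction without a call in either fit, and 2415 kept their direction and side of the threshold. The replicate numbers did not pair the animals: over 10 pairs the correlation of deviations ran from -0.482 to 0.478, 3 were over 0.1, and 1 of 10 combination libraries correlated best with its own number. The replicate block gave 388 genes higher and 8 lower. The arrangement of surgery, pump and drug limits what the contrast can show, and 203 of the 436 genes had a sham median under 1 CPM.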
